A study of Mus musculus with 8 samples.

Results

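Carboxylesterases were studied in the livers of mice with and without Cebpa in their hepatocytes, both fed ethanol. The 10 genes Ces1b, Ces1c, Ces1d, Ces1e, Ces1f, Ces1g, Ces2a, Ces2e, Ces3a and Ces3b were taken by gene symbol from the 55450 gene identifiers of the deposited tables, and each symbol matched a single row. The 4 knockout livers, labelled Cre+, came from mice with a hepatocyte knockout of floxed Cebpa. The 4 control livers, labelled Cre- and WT, carried the same floxed Cebpa without Cre. Mice of both groups were 10 weeks old. After 5 days on liquid control food they drank an ethanol diet (5% by volume) over 4 weeks, so all 8 livers were exposed to ethanol. The promoter that drove Cre is not given in the sources used here, and livers without ethanol are not analysed here. The labels number the livers 1 to 4 in each group, and p-values measure the spread between these samples.

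Carboxylesterases are serine hydrolases that cut ester and amide bonds in drugs, in pesticides and in neutral lipids. In the mouse the family has expanded to clusters of tandem genes, where the human liver relies mainly on CES1 and CES2. Most of the enzymes stay in the lumen of the endoplasmic reticulum, held by a retrieval signal at the end of the protein, and several hydrolyse stored triacylglycerol for export in very low density lipoprotein (VLDL). The product of Cebpa, C/EBP alpha, is a leucine zipper protein that binds DNA as a dimer and keeps up the gene expression of mature hepatocytes.

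The ends of the coding sequences are shown because the retrieval signal lies at the end of the protein. Each line gives the last 30 bases of the longest complete coding sequence in GENCODE M21, 5′ to 3′, with the last 4 codons before the stop codon in capitals.
Ces1b: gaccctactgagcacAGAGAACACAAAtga
Ces1c: gaccctactgaacacACAGAACACAAAtga
Ces1d: ccatcccacagggaaCATGTTGAGCTCtga
Ces1e: caactgccgacagaaCACACTGAGCTGtga
Ces1f: caaccccagccatacCACAATGAGCTGtga
Ces1g: tcatcccatagggaaCATGTTGAACTGtga
Ces2a: ggttctcaggacaagCATGCAGAGCTGtag
Ces2e: gggtctcaggagaggCACAAAGAGTTGtag
Ces3a: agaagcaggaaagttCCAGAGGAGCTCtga
Ces3b: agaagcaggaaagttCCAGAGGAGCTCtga
Ces1b and Ces1c ended in the codon AAA, and the other 8 genes ended in CTC, CTG or TTG, codons of leucine, the last residue of the retrieval signal. Among these 8, the last 4 codons began with CCA in Ces3a and Ces3b and with CAC or CAT in the others. Where the enzymes go was not measured here. Ces1c is known as the carboxylesterase that mouse liver secretes into plasma, where it breaks down many ester drugs. The ends of Ces3a and Ces3b were identical over all 30 bases. All 20 annotated genes of the family lie on chromosome 8 of mm10, 9 of them from 93020214 to 93535830 and 11 from 104734003 to 105150109. The Ces1 genes and Ces5a lie in the first cluster on the minus strand, and the Ces2 and Ces3 genes and Ces4a lie in the second on the plus strand.

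Reads shared between paralogs bear on every value of this family, because the authors' RSEM estimation divides them. The coding sequences of the 10 genes were 78.4% to 95.3% identical within a subfamily and 70.0% to 74.0% identical across subfamilies. The closest pair was Ces3a and Ces3b at 95.3%, followed by Ces1b and Ces1c at 92.2%. Of all stretches of 100 bases in a transcript, 9.09% of those of Ces3a and 7.68% of those of Ces3b also occurred in the other gene of the pair. For Ces2a the share was 10.7%, all of it with Gm7208, and for Ces1b and Ces1c it was 1.29% and 1.39%. Ces1d, Ces1e, Ces1f, Ces1g and Ces2e shared no stretch of 100 bases with another gene, and of their stretches of 50 bases they shared between 1.28% and 3.36%. For Ces1g and Ces1f, the genes with the smallest edgeR p below, the shares at 50 bases were 1.67% and 1.60%. These shares count exact matches of a single transcript per gene. How the reads of Ces1g and Ces1f were assigned was not tested. Ces3a overlaps Gm45724 on the opposite strand, and Ces1d overlaps Gm45909 on its own strand. The strand setting of the counting is not given in the sources used here, so reads of Gm45724 may be counted with Ces3a.

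The libraries held between 21048350 and 28148744 expected counts. Cebpa was at 7.06 ± 1.65 CPM (the count relative to library size after TMM scaling) in knockout livers and 293 ± 31.1 CPM in control livers (SD, n = 4 each). Cebpa had a log2 fold change of -5.37, with an SE of 0.18 and an edgeR adjusted p of 4.78e-07, and all 8 livers followed their labels. All 10 carboxylesterase genes passed the filter on low counts, and so were among the 13303 genes tested. Of the 6 hepatocyte markers listed, all were detected, and they summed to between 102451 and 113243 CPM in knockout livers and between 83747 and 118263 CPM in control livers.

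None of the 10 genes passed edgeR's quasi-likelihood test at an adjusted p of 0.05. Over all genes tested, 274 passed, or 2.06%. Ces1g came nearest, 2.26-fold higher in knockout livers, followed by its neighbour Ces1f, 1.41-fold lower. DESeq2, the tool named in the submitters' processing notes, called both of these genes and none of the other 8, and it called 5.68% of all genes to which it gave an adjusted p. At an unadjusted edgeR p below 0.05 there were 4 of the 10 genes, Ces1g and Ces1e with higher values in knockout livers and Ces1f and Ces3a with lower ones, where 18.5% of all genes tested had such a p. In 3 of the 10, Ces1e, Ces1f and Ces1g, the CPM of the groups did not overlap, where 11.4% of all genes tested had no overlap. The median log2 fold change of the 10 genes was -0.08, against 0.0036 over all genes tested, with 5 genes above 0 and 5 below. In whole liver RNA, fewer cells of a type and less RNA per cell cannot be told apart.

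**Figure D1:**
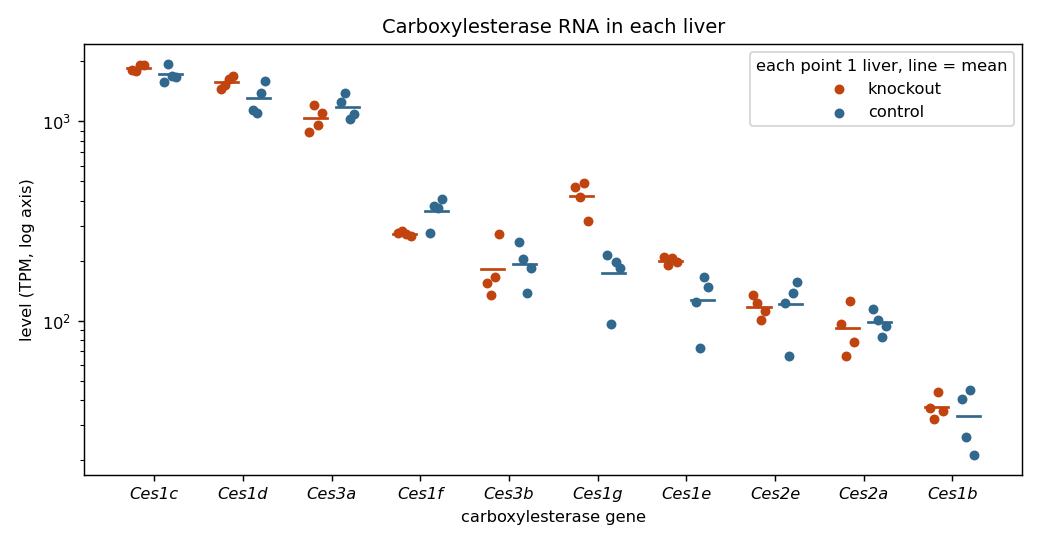
Level of each of the 10 carboxylesterase genes (TPM, a level per transcript length, on a log axis), with 1 point per liver, a line at the mean, and knockout livers left of control livers. Ces1g sat between 316 and 491 TPM in knockout livers, above all control livers, while Ces1c, Ces1d and Ces3a were the most abundant in both groups.

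Ces1g encodes a lipid hydrolase, and mice that lack it make more fat in the liver. It lies on chromosome 8 from 93302369 to 93337308. Its level was 469, 415, 491 and 316 TPM in knockouts 1 to 4 and 214, 96.05, 198 and 184 TPM in controls 1 to 4. Every knockout liver was above every control liver, with knockout 4 the lowest of its group and control 2 far below the other controls. On the scale of the test, Ces1g averaged 695 ± 147 CPM in knockout livers and 307 ± 98.0 CPM in control livers (SD, n = 4 each). The log2 fold change was 1.18 (SE 0.26, 95% interval 0.59 to 1.76, edgeR adjusted p = 0.0558). DESeq2 gave an adjusted p of 0.00015. Without control 2 the log2 fold change was 0.97 and the gene was called by edgeR (adjusted p = 0.0259). Without knockout 4 it was 1.30 and also called (adjusted p = 0.0441), and without both livers 1.09 (adjusted p = 0.00323). Control 2 also had the highest level of the acute phase gene Orm1, at 1413 CPM against 61.2 to 275 CPM in the other controls. Whether Orm1 or what raised it bears on the Ces1g level was not tested. Control 2 and knockout 4 were the lowest of their groups for Ces1g, and leaving them out together lowered the SE to 0.12. Leaving out the lowest liver of each group narrows the spread by itself, so the p without both is no separate support. The same choice raised the edgeR calls over all genes from 274 to 431. With any other single liver left out edgeR did not call Ces1g. The adjusted p then ran from 0.072 (without control 1) to 0.137 (without knockout 1).

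Ces1f, also named TGH-2, encodes a triacylglycerol hydrolase of liver and adipose tissue. It is the next gene of the cluster, from 93256236 to 93279747. Its level was 275, 282, 272 and 267 TPM in knockouts 1 to 4 and 277, 374, 368 and 409 TPM in controls 1 to 4. The knockout livers lay close together, and control 1 was the 1 control within their range in TPM. In CPM the groups did not overlap, at 342 ± 8.48 CPM in knockout livers and 482 ± 73.0 CPM in control livers (SD, n = 4 each). The log2 fold change was -0.50 (SE 0.12, 95% interval -0.755 to -0.24, edgeR adjusted p = 0.0609), and DESeq2 gave an adjusted p of 0.00167. Without control 1 edgeR called the gene (log2 fold change -0.60, adjusted p = 0.0286). With any other single liver left out edgeR did not call it. The adjusted p then ran from 0.0828 (without knockout 4) to 0.159 (without knockout 2). On log2(TPM + 1), limma gave an adjusted p of 0.13 for Ces1f.

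The neighbours Ces1g and Ces1f stood in opposite order of level in the 2 genotypes. Within a liver their ratio does not depend on library scaling, and it was chosen for description after the values were seen. Ces1g over Ces1f was 1.70, 1.48, 1.81 and 1.19 in TPM in knockouts 1 to 4, and 0.774, 0.257, 0.537 and 0.450 in controls 1 to 4. Ces1g was thus the more abundant of the pair in all 4 knockout livers and the less abundant in all 4 control livers. Coding sequences of the pair were 78.8% identical.

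**Figure D2:**
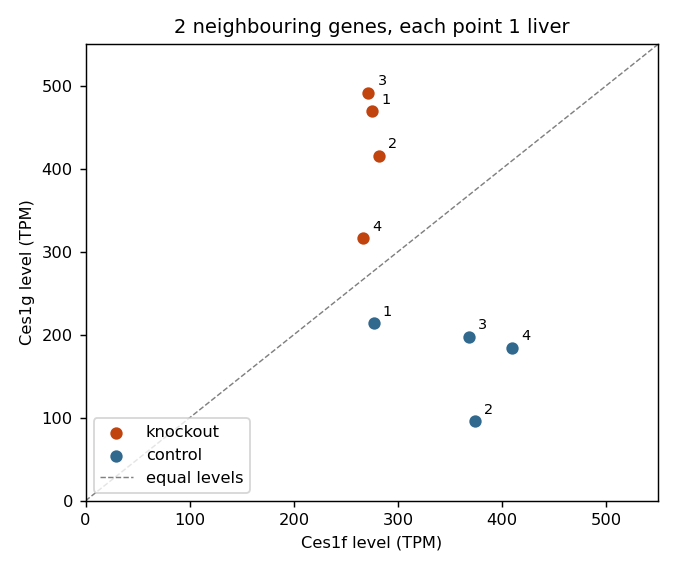
Ces1g level against Ces1f level (both TPM) with 1 numbered point per liver and a dashed line where both are equal. The 4 knockout livers lie above the line, at ratios of 1.19 to 1.81, and the 4 control livers below it, at 0.257 to 0.774.

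Ces1e, egasyn, binds beta-glucuronidase and keeps part of it in the endoplasmic reticulum. Its level was 208, 191, 205 and 196 TPM in knockouts 1 to 4 and 124, 72.7, 166 and 147 TPM in controls 1 to 4. Every knockout liver was above every control, and control 2 was again the lowest. The log2 fold change was 0.55 (SE 0.22, 95% interval 0.06 to 1.04, edgeR adjusted p = 0.222, DESeq2 adjusted p = 0.129), and neither tool called it. With 1 liver left out it ran from 0.35 (SE 0.10, without control 2) to 0.68 (without control 3), called by edgeR in none of these fits. Gusb, which encodes beta-glucuronidase and is named here after its values were seen, was at 27.4 ± 3.39 CPM in knockout livers and 29.9 ± 1.51 CPM in control livers (SD, n = 4 each, edgeR adjusted p = 0.533).

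The most abundant of the genes, Ces1c, had nearly equal levels in both genotypes. It was at 1804, 1800.1, 1920.1 and 1920.4 TPM in knockouts 1 to 4 and 1586, 1952, 1686 and 1668 TPM in controls 1 to 4. The fitted log2 fold change of 0.0035 had an SE of 0.10 and a 95% interval of -0.23 to 0.24 (edgeR adjusted p = 0.99). Ces1b, the gene most like it in sequence, was the least abundant of the 10. It ranged from 32.1 to 44.0 TPM in knockout livers and from 21.1 to 44.7 TPM in control livers (log2 fold change 0.05, 95% interval -0.49 to 0.59, edgeR adjusted p = 0.932).

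Ces1d, known as TGH and in older literature as Ces3, is the main triacylglycerol hydrolase that draws on stored fat for VLDL. Its level was 1463, 1519, 1639 and 1698 TPM in knockouts 1 to 4 and 1146, 1105, 1389 and 1594 TPM in controls 1 to 4. The groups overlapped through control 4. For Ces1d the fitted log2 fold change was 0.17 (SE 0.14, 95% interval -0.15 to 0.48, edgeR adjusted p = 0.56).

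Ces2a, a carboxylesterase of liver and intestine that also acts on acylglycerols, ranged from 66.6 to 126 TPM in knockout livers and from 82.4 to 114 TPM in control livers. Its log2 fold change was -0.19 (95% interval -0.67 to 0.29, edgeR adjusted p = 0.672). Ces2e, also in the second cluster, ranged from 100.5 to 135 TPM in knockout livers and from 66.2 to 156 TPM in control livers. Its log2 fold change was -0.16 (95% interval -0.70 to 0.38, edgeR adjusted p = 0.753). The knockout range of Ces2e lay wholly within its control range, and that of Ces2a extended past its control range at both ends.

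The Ces3 genes encode further esterases of the hepatocyte endoplasmic reticulum. Ces3a was at 889, 1211, 955 and 1105 TPM in knockouts 1 to 4 and 1249, 1391, 1025 and 1086 TPM in controls 1 to 4. The groups overlapped, with knockout 1 the lowest of all livers and control 2 the highest. The log2 fold change was -0.31 (SE 0.13, 95% interval -0.60 to -0.02, edgeR adjusted p = 0.238). Ces3b ranged from 134 to 271 TPM in knockout livers and from 138 to 248 TPM in control livers (log2 fold change -0.21, 95% interval -0.74 to 0.33, edgeR adjusted p = 0.678). Because this pair shares reads, the sum of both is the firmer value, at 1619 ± 155 CPM in knockout livers and 1986 ± 306 CPM in control livers (SD, n = 4 each).

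**Figure D3:**
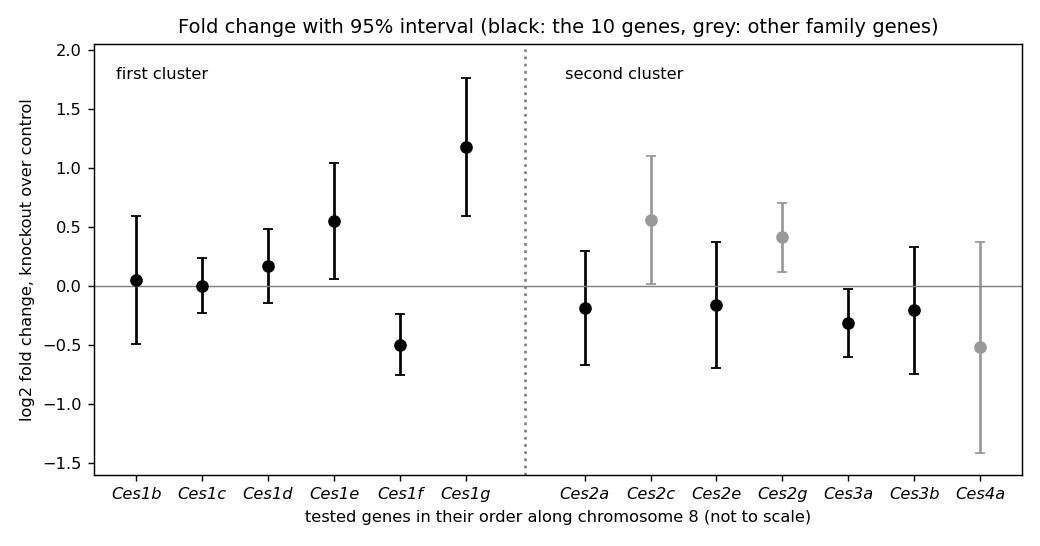
Fitted log2 fold change (knockout over control, CPM scale) with its 95% interval for the 13 tested genes of the family, in their order along chromosome 8, with the 10 genes in black and other family genes in grey. Ces1e, at 0.55, and Ces1g, at 1.18, lie on either side of Ces1f, at -0.50, and the intervals of 6 of the 10 genes include 0.

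Summed over the 10 genes, the RNA of the family was almost the same in both genotypes. The sum was 7583 ± 385 CPM in knockout livers and 7422 ± 302 CPM in control livers (SD, n = 4 each), a log2 ratio of 0.03. In TPM the sum was 5531, 5775, 5917 and 5998 in knockouts 1 to 4, against 5122, 5387, 5235 and 5545 in controls 1 to 4, a log2 ratio of 0.13. The groups overlapped narrowly on that scale, on which the median log2 fold change of all genes tested was itself 0.09 to 0.12, depending on the pseudocount. The 10 genes made up 0.553% to 0.600% of all TPM in knockout livers and 0.512% to 0.555% in control livers. The 6 Ces1 genes summed to 5682 ± 393 CPM in knockout livers and 5117 ± 392 CPM in control livers (SD, n = 4 each). The 2 Ces2 genes summed to 283 ± 39.0 CPM in knockout livers and 319 ± 61.6 CPM in control livers (SD, n = 4 each). In CPM the log2 ratio was 0.15 for Ces1, -0.17 for Ces2 and -0.30 for Ces3, with overlapping groups in each. In TPM the Ces1 sums did not overlap, at 4239 to 4571 in knockout livers and 3387 to 4024 in control livers (log2 ratio 0.23). Those of Ces2 and Ces3 overlapped in TPM. These sums were not tested.

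Within the sum, the order of the genes differed between genotypes at the middle ranks. Ces1c, Ces1d and Ces3a led in both groups and held 75.1% to 78.7% of the summed TPM in knockout livers and 77.7% to 82.6% in control livers. The ranges of these 3 genes did not overlap in knockout livers, while those of Ces1c and Ces1d, and of Ces1d and Ces3a, overlapped in control livers. In knockout livers Ces1g was in place 4, at 423 ± 77.9 TPM, ahead of Ces1f at 274 ± 6.33, Ces1e at 200.2 ± 8.07 and Ces3b at 181 ± 61.3 TPM (SD, n = 4). In control livers Ces1f was in place 4, at 357 ± 56.6 TPM, followed by Ces3b at 193 ± 45.7, Ces1g at 173 ± 52.8 and Ces1e at 127 ± 40.2 TPM (SD, n = 4), the last 3 with overlapping ranges. The share of Ces1g in the sum was 7.31 ± 1.47% in knockout livers and 3.27 ± 1.05% in control livers, and that of Ces1f 4.72 ± 0.248% in knockout livers and 6.69 ± 0.880% in control livers (SD, n = 4 each).

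**Figure D4:**
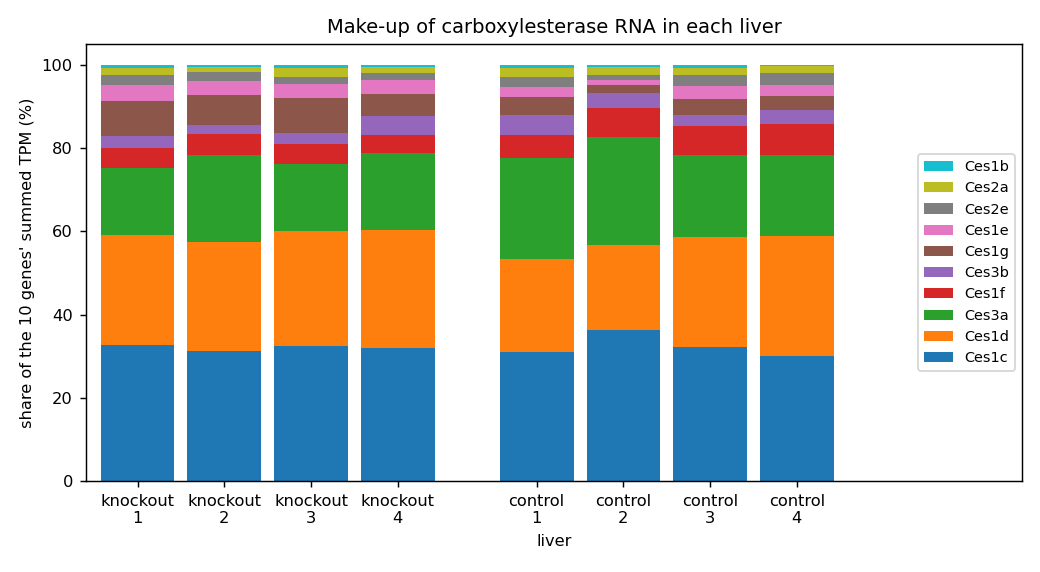
Share of each gene in the summed TPM of the 10 carboxylesterase genes (percent), with 1 bar per liver and knockout livers left of control livers. Ces1g takes 5.27% to 8.48% in knockout livers and 1.78% to 4.18% in control livers, and Ces1c close to 32% on average in both.

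Of the other 10 annotated genes of the family, 3 had enough counts to be tested and none was called, by edgeR or by DESeq2. In 2 of the 3, Ces2c and Ces2g, the unadjusted edgeR p was below 0.05, with higher values in knockout livers. Over all genes tested, 18.5% had such a p. Ces2c, a drug and acylcarnitine hydrolase, was at 89.3 ± 23.4 CPM in knockout livers and 60.5 ± 18.1 CPM in control livers (SD, n = 4 each, log2 fold change 0.56, edgeR adjusted p = 0.256). Ces2g was at 55.1 ± 7.29 CPM in knockout livers and 41.4 ± 6.78 CPM in control livers (SD, n = 4 each, log2 fold change 0.41, edgeR adjusted p = 0.142). Ces4a was low, at 1.23 ± 0.758 CPM in knockout livers and 1.81 ± 0.545 CPM in control livers (SD, n = 4 each, edgeR adjusted p = 0.518). Ces1a, Ces2b and Ces2h had 27, 45 and 20 expected counts over the 4 knockout livers and 8, 29 and 16 over the 4 control livers. Ces1h, Ces2f and Ces2d-ps had 1, 1 and 11.2 counts over the knockout livers and 3, 0 and 6.31 over the control livers, and Ces5a had none in any liver.

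The upstream sequences are shown because Cebpa is the gene deleted and C/EBP dimers bind sites related to the palindrome TTGCGCAA, searched here also in the looser form TTGCNNAA. RefSeq windows of 250 bases before the transcription start on GRCm38.p6 were found for 7 of the 10 genes, with a pair of overlapping windows for Ces1b. No window was found for Ces1d, Ces1f and Ces3a. The windows of Ces1c (chr8:93131284-93131533, minus strand) and Ces2a (chr8:104733753-104734002, plus strand) are given 5′ to 3′ with matches to TTGCNNAA in capitals, on either strand.
Ces1c: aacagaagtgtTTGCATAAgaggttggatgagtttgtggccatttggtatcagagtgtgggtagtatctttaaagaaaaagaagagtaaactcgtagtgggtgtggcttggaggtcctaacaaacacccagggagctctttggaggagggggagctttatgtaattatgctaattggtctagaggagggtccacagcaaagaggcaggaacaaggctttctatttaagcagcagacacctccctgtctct
Ces2a: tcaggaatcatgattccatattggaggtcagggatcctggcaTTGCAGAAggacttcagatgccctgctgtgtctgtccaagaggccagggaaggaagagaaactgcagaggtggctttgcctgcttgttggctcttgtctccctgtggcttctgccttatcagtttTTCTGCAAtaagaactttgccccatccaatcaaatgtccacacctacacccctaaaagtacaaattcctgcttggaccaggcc
The Ces1c match began 239 bases before the start, and those of Ces2a 208 and 83 bases before it. Matches also stood in the windows of Ces1b, with the same letters as in Ces1c, and of Ces2e. The windows of Ces1e, Ces1g and Ces3b held none, and none of the 8 windows held the palindrome TTGCGCAA. Over all 32851 mouse windows of this length, 9.56% held TTGCNNAA and 0.164% held TTGCGCAA. The matches describe letters only. The 4 genes with a match (Ces1b, Ces1c, Ces2a and Ces2e) had log2 fold changes between -0.19 and 0.05. Those with a window but no match had 0.55 (Ces1e), 1.18 (Ces1g) and -0.21 (Ces3b). Whether the matches bear on these levels was not tested.

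Of 27 other ester and lipid hydrolases tested, edgeR called 1 and DESeq2 called 3. In 9 of them the unadjusted edgeR p was below 0.05, and the median log2 fold change was -0.06. Lpl, lipoprotein lipase, rose to 117 ± 35.3 CPM in knockout livers, against 19.0 ± 4.37 CPM in control livers (SD, n = 4 each, log2 fold change 2.63, SE 0.26, edgeR adjusted p = 0.00262). Of 20 genes of VLDL assembly and lipid droplets none was called by edgeR and 3 by DESeq2. In 7 of them the unadjusted edgeR p was below 0.05, 3 with higher and 4 with lower values in knockout livers. The log2 fold change was below 0 in 14 of the 20 genes and above 0 in 6, with a median of -0.09. The 2 with the smallest p were Pla2g12b, a secretory protein needed for VLDL export, at 32.9 ± 2.84 CPM in knockout livers and 25.8 ± 1.45 CPM in control livers (adjusted p = 0.0668), and Plin2, a droplet coat protein, at 547 ± 131 CPM in knockout livers and 359 ± 55.4 CPM in control livers (SD, n = 4 each, edgeR adjusted p = 0.114). Of 19 nuclear receptors and other regulators tested none was called by edgeR and 1 by DESeq2. In 5 of them the unadjusted edgeR p was below 0.05, and the median log2 fold change was -0.15. Nr1h3, the oxysterol receptor LXR alpha, was at 57.3 ± 1.42 CPM in knockout livers and 66.5 ± 3.41 CPM in control livers (SD, n = 4 each, edgeR adjusted p = 0.13). Cebpb, the paralog of Cebpa, was at 174 ± 33.02 CPM in knockout livers and 119 ± 24.5 CPM in control livers (SD, n = 4 each, edgeR adjusted p = 0.132).

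Some markers of other cell types were higher in knockout livers. The 6 cholangiocyte markers, of which edgeR tested 5 and called Krt19, Epcam and Spp1 higher, summed to between 115 and 363 CPM in knockout livers and between 25.6 and 63.8 CPM in control livers. The 6 macrophage markers summed to 208 to 351 CPM in knockout livers and 127 to 264 CPM in control livers, the 6 stellate markers to 68.6 to 269 CPM in knockout livers and 46.5 to 68.5 CPM in control livers, and the 6 endothelial markers to 127 to 172 CPM in knockout livers and 108 to 134 CPM in control livers. No gene of these 3 lists was called by edgeR, with 3, 4 and 2 genes at an unadjusted p below 0.05, and DESeq2 called 1, 0 and 0. The 6 intestinal markers summed to 68.8 to 90.1 CPM in knockout livers and 51.4 to 109 CPM in control livers, with Cdx2 at 0 in every liver. The 6 markers of pancreas and adipose tissue, where Ces1d and Ces1f are also expressed, summed to 11.5 to 19.9 CPM in knockout livers and 8.72 to 22.4 CPM in control livers, with Prss1, Pnlip, Adipoq and Plin1 at 0 in every liver. Of the 6 hepatocyte markers edgeR called 1. This was Serpina1c, which fell to 2475 ± 612 CPM in knockout livers, against 6777 ± 1232 CPM in control livers (SD, n = 4 each, edgeR adjusted p = 0.00675). The log2 fold change was above 0 in 2 of the 6 markers and below 0 in 4. At an unadjusted edgeR p below 0.05, 1 marker was higher and 2 were lower in knockout livers, and DESeq2 called 2. The part of these cell type markers in the Ces1g and Ces1f values was not tested.

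The 5 genes whose pattern over the 8 livers was most like that of Ces1g were Olfm3, Jun, Mapt, 4930480K23Rik and Cc2d2a, of 13302 compared. Likeness was the root mean square difference of mean-centred log2 CPM, which was 0.14 for Olfm3 and 0.21 to 0.24 for the other 4. Olfm3, which encodes an olfactomedin, was at 11.9, 10.8, 15.7 and 6.92 CPM in knockouts 1 to 4 and 5.87, 2.81, 5.77 and 4.81 CPM in controls 1 to 4. Knockout 4 and control 2 were the lowest of their groups, as for Ces1g. Olfm3 was selected for its likeness over these same livers, so the shared lowest livers are not a separate finding. Mapt, which encodes the microtubule protein tau, was the 1 of the 5 that edgeR called (log2 fold change 1.27, adjusted p = 0.0279). It was low, at 2.97 to 4.67 CPM in knockout livers and 0.97 to 1.98 CPM in control livers. A difference between the groups was part of the pattern these 5 genes were selected for, so this call is not a separate finding either.

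**Figure D5:**
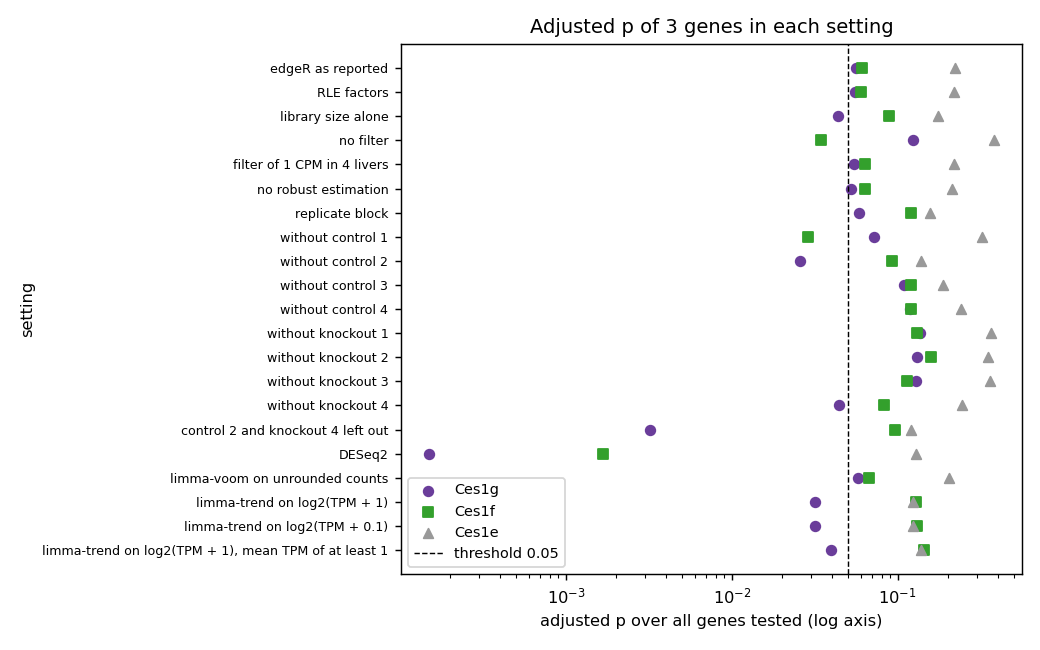
Adjusted p over all genes tested (log axis) of Ces1g, Ces1f and Ces1e in the fit as reported and in 20 alternative settings, 1 row each, with a dashed line at 0.05. Ces1g lies left of the line in 8 of the 20 settings, Ces1f in 3 and Ces1e in none.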

How the data were processed

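Libraries of liver mRNA were made with a TruSeq kit that keeps strand, per the labels' protocols. Tools listed, without their order, in the submitters' processing notes are RSEM 1.2.22, STAR 2.5.1, Trimmomatic 0.36, Picard 1.84 and DESeq2, with the build mm10. The sources used here give neither the annotation release nor the strand setting of the counting. The deposited tables hold RSEM expected counts per gene, in which the authors' estimation divides shared reads, and TPM, which the authors' RSEM runs scale by effective transcript length. All 55450 identifiers matched GENCODE M21. The table of the whole series repeats these counts and was not used.

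After rounding, the expected counts of all 8 livers entered 1 model in edgeR 4.0.16 under R 4.3.3 (filterByExpr with a minimum count of 10 and total of 15, TMM, robust quasi-likelihood test, Benjamini-Hochberg adjustment over all genes tested, threshold 0.05). The fit was run on counts simulated from its own means and dispersions, which checks the code and not whether the real counts follow that model. Its recovery of changes as small as those of Ces1g and Ces1f is not reported here. SEs and 95% intervals come from the fold change, the F statistic and its degrees of freedom. Alternatives used DESeq2 1.42.0, limma 3.58.1, other scalings and filters, and left-out livers. Same-numbered livers were not paired in the labels, and no 2 livers of a group agreed within sampling noise. A count of 1 was worth 0.0355 to 0.0475 CPM of a library's total.

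Genes named are the 10 carboxylesterase genes, Cebpa, the other family genes, every called gene of each list (or the 2 with the smallest p, for the lists of lipid hydrolysis, VLDL assembly and regulators), the 5 genes most like Ces1g in pattern, and Gusb and Orm1, chosen after their values were seen. The genes and lists were chosen with earlier results of these data known.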

Additional observations from a re-analysis of the deposited data

Results flagged for a closer look

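Ces4a in knockout livers stood out for 1 liver far from the other 3. Its values, in ascending order, were 0.674, 0.949, 0.960 and 2.35 CPM, and the gap below the highest liver, knockout 4, was 0.830 of the whole range, just past the critical value of Dixon's test for 4 samples. Such a gap arises by chance in about 1 group in 20, and 40 groups were checked. The log2 fold change of Ces4a was -0.52 with all livers and ran from -1.06 to -0.34 with 1 liver left out, called by edgeR in none of these fits.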

How the results depend on the processing

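With all 8 livers edgeR called 0 of the 10 genes. DESeq2 called 1 higher (Ces1g) and 1 lower (Ces1f) and 844 of all genes, against 274. Ces1g was the 1 gene called higher with library sizes alone, without control 2 and knockout 4 together, and in the 3 limma fits on TPM. Ces1f was the 1 called lower with no filter. With 1 liver left out, 0 to 1 were called higher, 0 to 1 lower, and 108 (without knockout 2) to 372 (without knockout 4) of all genes. Over the 20 alternatives the adjusted p of Ces1g ran from 0.00015 to 0.137 and that of Ces1f from 0.00167 to 0.159, and both kept their sign in all 20. Without control 2 and knockout 4 there were 431 calls, and with a mean TPM of at least 1 there were 171. With a replicate block there were 176, none of them 1 of the 10 genes (correlations of same-numbered livers 0.207, 0.009, -0.024 and -0.067). The labels do not pair these livers, and whether same-numbered livers were handled together was not tested. The log2 ratio of the summed level, 0.03 as reported, was 0.10 with library sizes alone and 0.13 in TPM.

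Signs changed in genes near 0, none of them called. Ces1b ran from -0.12 to 0.21 with 1 liver left out and was -0.0245 without control 2 and knockout 4. Ces1c ran from -0.0404 to 0.0533 with 1 liver left out and was -0.0010 with no filter and -0.0057 with DESeq2. Ces2e was 0.019 on log2(TPM + 1), with or without the filter on mean TPM, and 0.020 on log2(TPM + 0.1). The causes were not tested. At these depths 7 other family genes had too few counts to be tested.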
